A study of Mus musculus with 9 samples.

Results

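Bcas2 encodes a core subunit of the PRP19 complex, a set of proteins that joins the spliceosome when it is activated and holds its catalytic centre together. The genes described here are Bcas2 and 9 genes of the same complex or of proteins that work with it, namely Prpf19, Cdc5l, Plrg1, Ctnnbl1, Cwc15, Xab2, Crnkl1, Syf2 and Isy1. They were taken by gene symbol from a table of 38674 genes measured in mouse testis, of which 25173 had a value above 0 in at least 1 sample. Of the 10 listed genes, 9 had a row, and Isy1 was not analysed here. Bcas2 was chosen because it differed between genotypes in these samples, so its values in knockout against wild type are given as a description without a test. The 8 other genes, called partners below, were chosen by name and were tested.

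The study deleted Pfn3, which encodes profilin 3, a small actin-binding protein of the testis, with CRISPR/Cas9 in C57BL/6 mice. RNA from whole testis without the tunica albuginea was sequenced at the 3′ end of messenger RNA in 3 wild-type (Pfn3+/+, WT), 3 heterozygous (Pfn3+/-, Het) and 3 homozygous knockout (Pfn3-/-, KO) males. All 9 samples shared strain, tissue and library method. The males used for the study's experiments were sexually mature, 2 to 6 months old. Several deletion lines were made. Which line was sequenced and the age of each sequenced male are not given in the sources used here, and the labels do not say whether the samples came from littermates.

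Splicing removes introns in steps, and the PRP19 complex enters after the U4 small nuclear ribonucleoprotein (snRNP) has left. PRPF19 is a ubiquitin ligase, CDC5L and PLRG1 form the core of the complex with BCAS2, and XAB2, ISY1, CRNKL1 and SYF2 bind around the intron in the activated spliceosome. In mouse testis, BCAS2 is known for a role in spermatogonia, where its loss disturbs splicing and entry into meiosis.

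Values are normalized counts, that is, whole counts per gene divided by 1 size factor per sample. The study prepared these counts from StringTie transcript quantities, and they are written as reads below. The recovered reads per library ranged from 3375546 to 4287335, and 3 reads correspond to 2.58 to 3.71 normalized counts, which was taken as the limit of detection. Pfn3 itself read 592, 383 and 373 in WT, 136, 339 and 326 in Het and 74.7, 215 and 279 in KO. The KO and WT values of Pfn3 did not overlap, the log2 fold change was -1.41 (SE 0.52) and the adjusted p in limma was 0.610. All 496 stretches of 50 bases in the Pfn3 transcript also lie within a transcript of 1 other gene, Slc34a1, which runs over Pfn3 on the opposite strand. Whether the counting used strand is not given in the sources used here, and without strand the reads of these genes cannot be told apart. The study reports that its deletions shift the Pfn3 reading frame, and it checked them by quantitative PCR, western blot and tissue staining. In the study's alignments of the coding sequence, the last stretch of that sequence remains in each deletion line. How the deletions affect reads at the sequenced 3′ end was not examined here, and this row does not check the labels. WT replicate 1 had the highest WT value of Plrg1, Ctnnbl1, Xab2 and Syf2 and the lowest of Prpf19, Cdc5l, Cwc15 and Bcas2. With 3 samples a group 1 of them is often at an end, and the share over all genes was not counted.

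Bcas2 (ENSMUSG00000005687, GRCm38 chr3:103171655-103179166, plus strand) was higher in every KO testis than in any WT testis. In WT it read 55.7, 176 and 148 normalized counts, from 45, 182 and 153 reads. In KO it read 838, 545 and 851 normalized counts, from 976, 563 and 952 reads. The KO mean was 745 ± 173 (SD, n = 3) and the WT mean 126 ± 62.7 (SD, n = 3). The log2 fold change was 2.68 on the log2(value + 1) scale, a 6.40-fold difference, and lay between 2.17 (without WT replicate 1) and 2.99 (without WT replicate 2) when any 1 sample was left out. Among 14223 genes compared between KO and WT, Bcas2 included, 56 had a log2 fold change at least as high as that of Bcas2. In size, 130 had one at least as large. With DESeq2 and edgeR these counts were 23 and 113.

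The Het testes did not form 1 group for this gene. Bcas2 read 42.5 in Het replicate 1, 932 in Het replicate 2 and 65.6 in Het replicate 3, from 45, 1001 and 62 reads. Het replicate 2 was above all 3 KO samples, whereas Het replicates 1 and 3 were near the lowest WT sample and below the other two. The Het mean was 347 ± 507 (SD, n = 3), with a standard deviation above the mean. The log2 difference was 0.29 for Het against WT and 2.39 for KO against Het. Both values hung on single samples. Het against WT was -1.09 without Het replicate 2 and -0.22 without WT replicate 1, but 1.13 without Het replicate 1 and 0.82 without Het replicate 3. KO against Het was 3.76 without Het replicate 2 and 1.55 without Het replicate 1. Means of counts in edgeR and DESeq2 gave 1.46 to 1.47 for Het against WT and 1.11 to 1.13 for KO against Het.

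**Figure D1:**
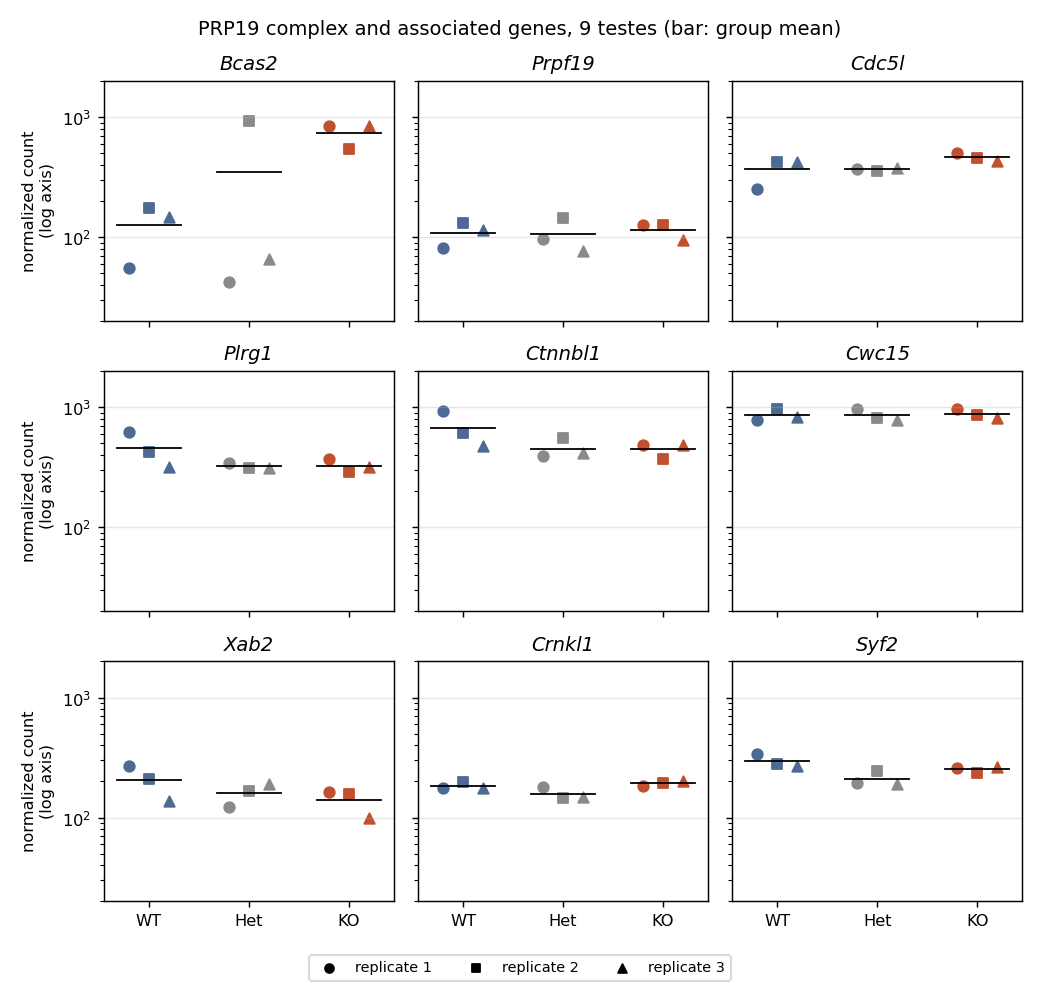
Normalized counts (log axis) of Bcas2 and its 8 partners in each testis by genotype, with symbols for the replicate and a bar for the group mean. Bcas2 lies between 42.5 and 176 in 5 samples and between 545 and 932 in the 3 KO samples and Het replicate 2, and the partner genes show no such gap.

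The core partners of Bcas2 had no such split. Prpf19 (ENSMUSG00000024735, chr19:10895231-10909559, plus strand), the ubiquitin ligase that names the complex, read 80.5, 130 and 115 in WT, 96.4, 143 and 76.2 in Het and 125, 126 and 93.8 in KO. All 3 genotypes overlapped. The log2 fold change was 0.10 for KO against WT (95% interval -0.55 to 0.74, adjusted p = 0.892 in limma), and its sign depended on WT replicate 1, without which it was -0.10.

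Cdc5l (ENSMUSG00000023932, chr17:45391884-45433737, minus strand), the scaffold that binds PRPF19, read 254, 426 and 423 in WT, 369, 358 and 378 in Het and 499, 460 and 432 in KO. Each KO sample was above each WT and each Het sample, by little over the highest WT sample. The log2 fold change was 0.37 against WT (95% interval -0.25 to 0.99, adjusted p = 0.643 in limma). Against Het it was 0.33, with an unadjusted p of 0.0479 and an adjusted p of 0.973 in limma.

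Plrg1 (ENSMUSG00000027998, chr3:83055522-83072355, plus strand), a WD-repeat protein of the core, read 622, 423 and 320 in WT, 343, 312 and 313 in Het and 372, 290 and 315 in KO. The WT samples spread the most, and KO overlapped with them. The difference between KO and WT was -0.43 on the log2 scale (95% interval -1.12 to 0.26, adjusted p = 0.643 in limma). Plrg1 lies on chromosome 3, as Bcas2 does.

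Genes for proteins attached to the core overlapped between WT and KO, as Prpf19 and Plrg1 did. Ctnnbl1 (ENSMUSG00000027649, chr2:157737401-157891614, plus strand), an armadillo-repeat protein that binds CDC5L, read 927, 607 and 481 in WT, 395, 550 and 416 in Het and 489, 368 and 490 in KO. The difference between KO and WT was -0.54 on the log2 scale (95% interval -1.24 to 0.16, adjusted p = 0.625 in limma). Cwc15 (ENSMUSG00000004096, chr9:14500617-14510577, plus strand) read 780, 976 and 832 in WT, 972, 819 and 792 in Het and 965, 858 and 810 in KO. Between KO and WT it differed by 0.03 on the log2 scale, with a 95% interval of -0.39 to 0.45 and an adjusted p of 0.961 in limma. As a ratio of KO to WT on that scale, the interval ran from 0.763 to 1.36.

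Of the intron-binding and late factors, Xab2 (ENSMUSG00000019470, chr8:3608421-3621316, minus strand) read 270, 209 and 137 in WT, 122, 167 and 190 in Het and 162, 157 and 99.2 in KO. XAB2 is a tetratricopeptide-type repeat protein also known from transcription-coupled DNA repair. Its genotypes overlapped, with a log2 fold change of -0.54 for KO against WT (95% interval -1.35 to 0.28, adjusted p = 0.641 in limma). Crnkl1 (ENSMUSG00000001767, chr2:145917479-145935014, minus strand), a scaffold of the same repeat type, read 177, 198 and 177 in WT, 180, 146 and 148 in Het and 185, 193 and 203 in KO. It had a log2 fold change of 0.07 for KO against WT (95% interval -0.35 to 0.50, adjusted p = 0.873 in limma). Its KO samples were all above its Het samples, by 0.29 on the log2 scale with an adjusted p of 0.973 in limma.

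Syf2 (ENSMUSG00000028821, chr4:134930898-134937548, plus strand), a small protein of the same late factors, was the partner whose WT samples lay above both other genotypes. It read 340, 277 and 266 in WT, 195, 242 and 190 in Het and 257, 237 and 264 in KO. The log2 fold change was -0.21 for KO against WT (95% interval -0.67 to 0.24, adjusted p = 0.670 in limma) and -0.49 for Het against WT (95% interval -0.99 to 0.01, adjusted p = 0.779 in limma).

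**Figure D2:**
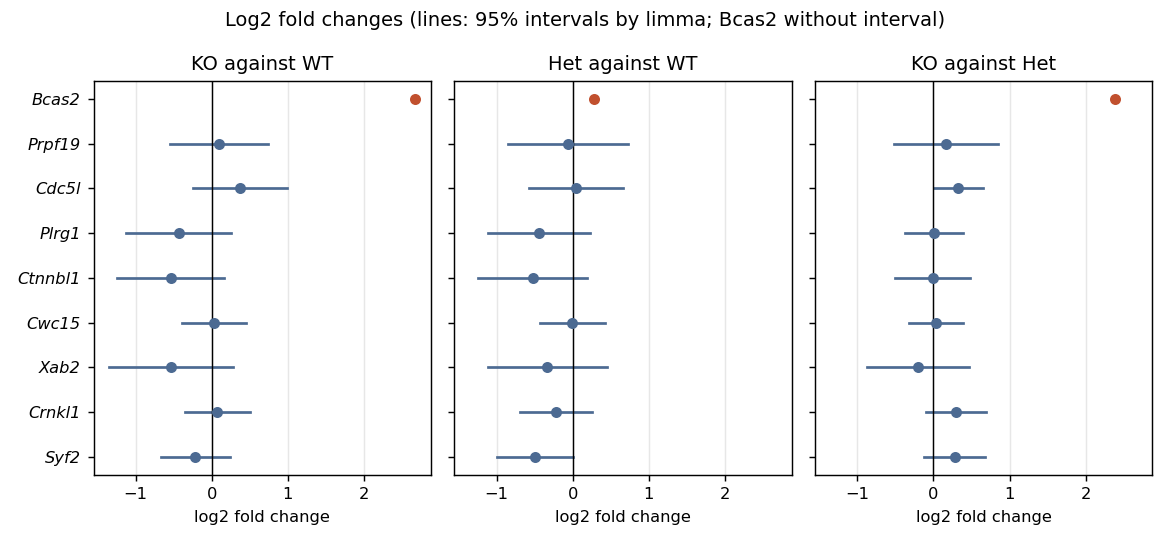
Log2 fold changes on the log2(value + 1) scale of Bcas2 and its partners in the 3 genotype comparisons, with 95% intervals from limma for the partners and none for Bcas2. The partners lie between -0.54 and 0.37, and Bcas2 lies at 2.68 for KO against WT, 0.29 for Het against WT and 2.39 for KO against Het.

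Counted together, none of the 8 partners passed the call in any comparison, which required an adjusted p under 0.05 together with a log2 difference beyond 1.5 either way. For KO against WT this call took in 5 of 14223 genes in limma (0.0352%), for Het against WT 0 of 14216 genes (0%) and for KO against Het 8 of 14343 genes (0.0558%). Calls are rare among all genes at this sample size, so 0 of 8 is near the background. The count of calls over all genes hung on single samples, with 49 for KO against WT without WT replicate 1 and 39 for KO against Het without Het replicate 2, and 0 partners were called in those fits too. At an unadjusted p under 0.05, 0 partners for KO against WT (all genes 8.07%), 0 for Het against WT (all genes 3.34%) and 1 for KO against Het, Cdc5l (all genes 3.56%), passed in limma. DESeq2 and edgeR also called 0 partners in each comparison, where DESeq2 called 0.703%, 0.218% and 0.265% of all genes and edgeR with TMM factors 0.0352%, 0% and 0.0488%.

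Directions of the partners were mixed. Between KO and WT, 4 lay above 0 and 4 below, with a median log2 fold change of -0.09 beside 0.02 over all genes, or 0.11 beside 0.22 when libraries were scaled by their total reads. Groups did not overlap for 2 partners (all genes 19.9%), Cdc5l in the higher direction (all genes 9.41%) and Syf2 in the lower (all genes 10.5%). For Het against WT, 1 partner was above 0 and 7 were below, with a median of -0.28 beside 0.01 over all genes, or 3 above 0 and a median of -0.12 beside 0.16 with scaling by total reads, and 1 did not overlap, Syf2 in the lower direction (all genes 6.49%, and 6.76% in the higher). For KO against Het, 6 were above 0 and 2 below, with a median of 0.10 beside -0.00 over all genes, or 7 above 0 and a median of 0.14 beside 0.04 with scaling by total reads, and 2 did not overlap, Cdc5l and Crnkl1 in the higher direction (all genes 5.12%, and 4.9% in the lower). The comparisons share samples, so these 3 counts are not independent.

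Set against its partners within each library, Bcas2 stood at different levels. The sum over the 8 partners ranged from 2504 to 3451 normalized counts, with a mean and SD over 3 samples of 3149 ± 360 for WT, 2638 ± 120 for Het and 2816 ± 207 for KO. Bcas2 counts were 1.61%, 5.41% and 5.37% of that sum in WT, 1.59%, 34.1% and 2.62% in Het, and 27.4%, 20.3% and 31.4% in KO. The ratio takes the library scaling out, and it divides the samples as the Bcas2 value alone does, with Het replicate 2 among the KO samples. A test of Bcas2 against its partners was not made, because Bcas2 was chosen from this contrast.

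The heterozygous samples can be placed in the same way for each partner. On the log2 scale, Het replicate 2 was nearer to the KO mean for Bcas2, Prpf19, Plrg1 and Syf2 and nearer to the WT mean for the other partners. For Plrg1 and Syf2 all 3 Het samples were nearer to the KO mean, so replicate 2 did not stand apart. For Prpf19 the KO and WT means were close, 6.85 (SD 0.24) and 6.75 (SD 0.36), so the placement says little. For Prpf19, replicate 2 had the highest Het value, as for Bcas2, but at 143 against 130 in the highest WT sample. The 3 Het values of Cdc5l lay between 358 and 378.

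Within WT and within Het, Bcas2 spread more than any partner, whereas within KO the range of Xab2, 0.70, was wider than that of Bcas2. The log2 range of Bcas2 was 1.64 in WT, 4.42 in Het and 0.64 in KO. Of 14865 genes with values of at least 10 in at least 3 samples, 22.3%, 4.74% and 46.6% had a range at least as large in the same genotype. The widest range of a partner in any genotype lay between 0.30 and 0.97, so 0 of 8 reached 4.42 in any genotype, beside 1380 of the 14865 genes (9.28%).

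Among other genes of the spliceosome, 13 of 72 (18.1%) had a range of at least 4.42 in at least 1 genotype. These were Hspa8, Pqbp1, Prpf8, Prpf3, Cd2bp2, Sf3a2, U2af1, Puf60, Tfip11, Dbr1, Prpf38a, Snrpb and Magoh, named after their values were seen. U2af1, which reads the end of introns, had 7.43, 239 and 194 in WT, 275, 0 and 3.17 in Het and 289, 0 and 231 in KO. Snrpb, a ring protein of the snRNPs, had 2.48, 297 and 20.3 in WT, 25.5, 19.6 and 327 in Het and 329, 7.74 and 281 in KO. For neither gene did high and low samples follow the genotype or the order of Bcas2. WT replicate 1 had the lowest of the 3 WT values for 11 of the 13 genes, as for Bcas2, and the highest for the other 2. This count is partly set by the choice of genes with a wide range. For Prpf8, Sf3a2, Dbr1, Snrpb and Magoh the widest range was that of WT, with replicate 1 lowest. The same share over all genes was not counted.

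**Figure D3:**
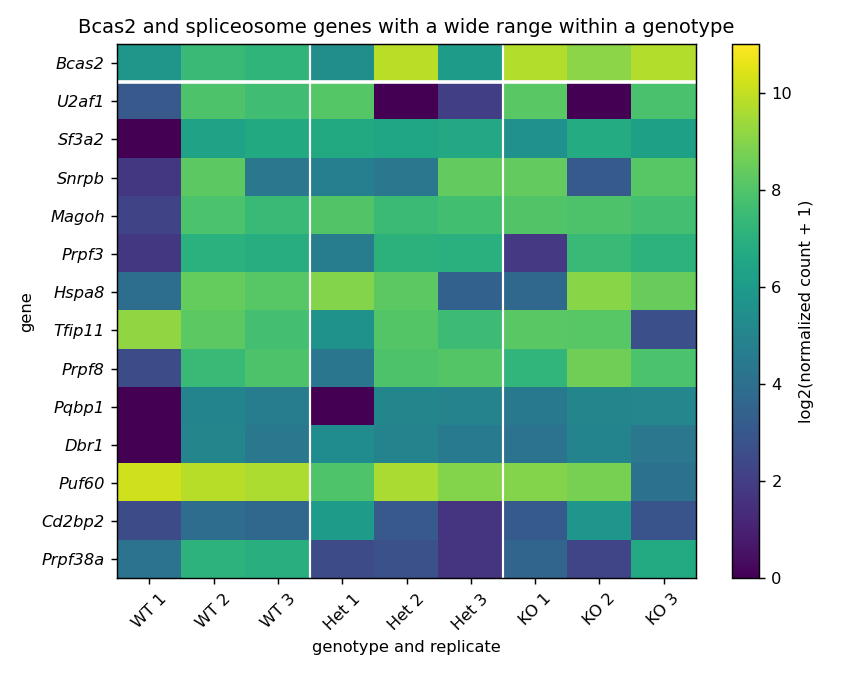
Log2(normalized count + 1), as colour, in each of the 9 testes for Bcas2 (top row) and the 13 other spliceosome genes with a log2 range of at least 4.42 within a genotype. Values at 0 sit beside values far above the limit of detection within 1 genotype, such as 289, 0 and 231 for U2af1 in KO, and the pattern of high and low samples differs from gene to gene.

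Other spliceosome genes were grouped by the particle or step in which they act. Of 78 listed genes, 75 had a row and 71 could be tested for KO against WT. None was called in limma, edgeR or DESeq2, and 5 had an unadjusted p under 0.05 in limma, beside 8.07% of all genes. The log2 fold change was above 0 for 41 and below 0 for 30, with a median of 0.12 and a range of -2.62 to 2.05. So 0 of 71 were larger in size than Bcas2, beside 130 of 14223 genes at least as large, Bcas2 included. Such sizes are rare among all genes and Bcas2 was chosen for this difference, so its rank is a description only. Groups did not overlap for 6 genes in the higher and 11 in the lower direction, beside 9.41% and 10.5% of all genes.

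All 12 genes listed as working beside the PRP19 complex had a row and were tested. Their median log2 fold change was 0.16, with 8 above and 4 below 0. Snw1, a subunit that stays with the catalytic spliceosome, read 344, 247 and 239 in WT, 164, 184 and 200 in Het and 215, 220 and 190 in KO, a log2 fold change of -0.39 for KO against WT (adjusted p = 0.628 in limma). Cwc27, a cyclophilin-type protein, read 35.9, 47.3 and 56.0 in WT, 57.6, 54.9 and 62.4 in Het and 67.9, 94.8 and 83.1 in KO, a log2 fold change of 0.82 (adjusted p = 0.610 in limma).

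The U5 and tri-snRNP genes had a median of 0.17 over 13 tested. Snrnp40, a WD-repeat protein of U5, had a log2 fold change of 0.38, and Prpf4, a protein of the U4/U6 particle, one of -0.42, with adjusted p of 0.641 and 0.621 in limma. Both were named from genes whose KO and WT samples did not overlap, so that trait was set by the choice. The genes for U1 and the shared Sm ring had a median of 0.07 over 10 tested, with Snrpd2 at -0.57 and Snrpe at 0.36, and adjusted p of 0.610 and 0.616 in limma.

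The genes of the U2 snRNP and the early complex held the widest values. Ddx46, the helicase that helps U2 bind the branch site, read 1080, 882 and 1046 in WT, 373, 974 and 394 in Het and 546, 414 and 387 in KO. Each KO value of Ddx46 was below each WT value, a trait set by the same choice. Het replicate 2 was with WT while Het replicates 1 and 3 were with KO. For Bcas2 it was the other way round, with Het replicate 2 beside KO. The log2 fold change for KO against WT was -1.17 (SE 0.20, adjusted p = 0.352 in limma). Puf60, which binds pyrimidine-rich tracts beside the branch site, had a log2 fold change of -2.62 (SE 1.29, adjusted p = 0.615 in limma), and its KO values were 500, 433 and 16.1, with KO replicate 3 far below the others. The group's median was 0.21 over 17 tested, with 10 above and 7 below 0.

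Factors of activation, catalysis and disassembly divided evenly, with 8 above and 8 below 0 and a median of -0.06. Dhx8, the helicase that releases spliced messenger RNA, had a log2 fold change of -0.67 (adjusted p = 0.610 in limma), with 416, 297 and 312 in WT and 215, 231 and 190 in KO. Gpkow, a partner of a splicing helicase, had 0.87 (adjusted p = 0.610 in limma), with 8.67, 11.6 and 12.6 in WT and 16.3, 30.0 and 17.9 in KO. The exon junction complex, which marks spliced junctions, had 3 of 5 genes with a row and a median of -0.05.

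**Figure D4:**
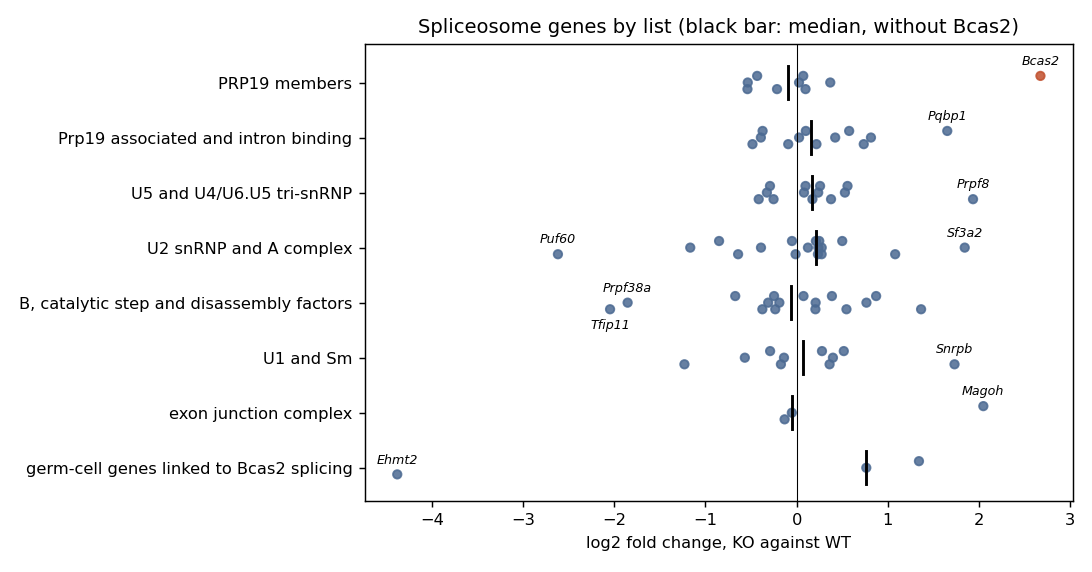
Log2 fold change for KO against WT of each tested gene by list, with a black bar for the median of the list, which leaves out Bcas2, and names on genes beyond 1.5 in size. Bcas2, which was chosen for this difference, lies at 2.68. The 71 other spliceosome genes lie to its left, from -2.62 to 2.05.

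As background, the splicing of Dazl, Ehmt2 and Hmga1 in germ cells has been linked to BCAS2. Counts at the 3′ end are for the whole gene and do not show how a gene was spliced. Dazl, an RNA-binding protein needed for germ cells, read 303, 426 and 591 in WT, 911, 513 and 657 in Het and 770, 758 and 645 in KO, a log2 fold change of 0.77 (adjusted p = 0.610 in limma). Ehmt2, a histone methyltransferase, was listed with earlier results of these data known and is given as a description. It read 40.9, 396 and 359 in WT, 13.2, 432 and 9.52 in Het and 8.59, 4.84 and 10.7 in KO, a log2 fold change of -4.38. All KO values of Ehmt2 were below all WT values, and Het replicate 2 was with WT replicates 2 and 3. Hmga1, a chromatin protein, read 6.19, 109 and 103 in WT, 122, 106 and 103 in Het and 90.2, 148 and 98.3 in KO, and its groups overlapped.

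Genes whose pattern was most like that of Bcas2 were named by the Pearson correlation of log2(value + 1) over the 9 samples, among 14865 genes. The samples fall into 2 sets for Bcas2, at 42.5 to 176 and at 545 to 932, and all genes share the 9 libraries, so the correlation is a description. Among the highest were Pygl (0.96), Arhgap10 (0.92), Gm45423 (0.91) and Zfp954 (0.91). The lowest were Gm15479 (-0.96), Srsf9 (-0.93), Ebag9 (-0.92), Pou5f1 (-0.92) and Myom2 (-0.90). None of these genes is a partner of Bcas2. Gm45423 rested on 21 reads or fewer in each sample, Pou5f1 on 16 or fewer, and Zfp954 and Myom2 on 15 or fewer.

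Srsf9, a splicing factor of the serine- and arginine-rich family, read 262, 318 and 285 in WT, 425, 3.72 and 358 in Het and 2.58, 1.93 and 0.894 in KO. It was high where Bcas2 was low and at or near the limit of detection where Bcas2 was high, Het replicate 2 included. Pygl, the liver form of glycogen phosphorylase, read 0, 6.75 and 5.79 in WT, 0, 14.0 and 1.06 in Het and 15.5, 13.5 and 20.6 in KO, on 23 reads or fewer. The correlation with Bcas2 was 0.66 for Prpf19, 0.58 for Cdc5l, 0.17 for Crnkl1, 0.16 for Syf2, 0.02 for Cwc15, -0.17 for Ctnnbl1, -0.36 for Xab2 and -0.43 for Plrg1.

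**Figure D5:**
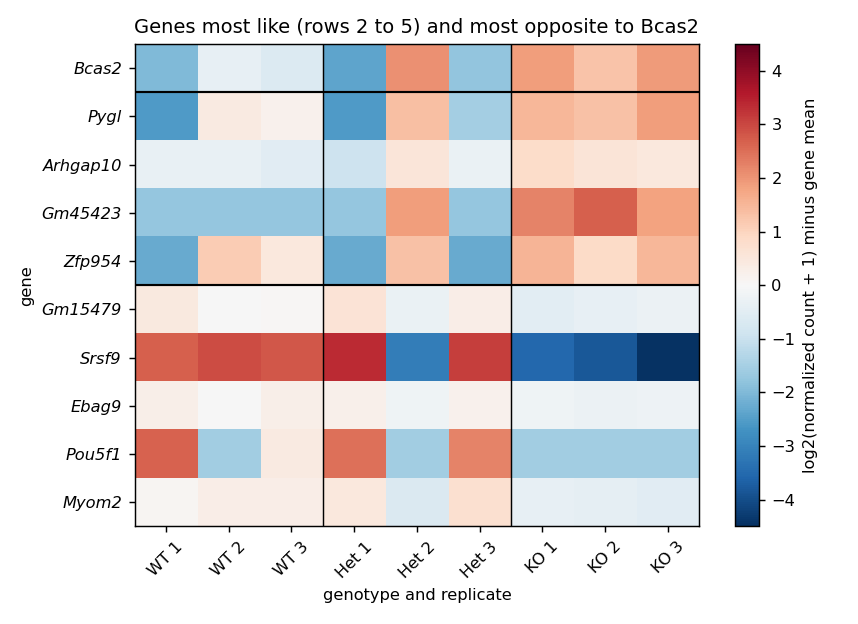
Log2(normalized count + 1) minus the mean of the gene over 9 samples, as colour, for Bcas2, 4 genes among those most correlated with it and the 5 least correlated. The 3 KO samples and Het replicate 2 share a colour for Bcas2 and the opposite colour for Srsf9, which read 3.72 in Het replicate 2 and 0.894 to 2.58 in KO.

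The neighbours of Bcas2 were expressed at low levels. Of genes with a row, 5 lie within 100 kb of it, namely Gm43062, Ampd1, Gm23820, Gm43063 and Dennd2c. Dennd2c ends 1.886 kb before Bcas2 starts and read 7.43, 6.75 and 5.79 in WT, 15.1, 0 and 5.29 in Het and 0, 6.77 and 9.83 in KO. Gm23820 read 0 in all samples, and the highest value of any of the 5 was 18.0. Trim33, just outside the window at 100.127 kb and named after its values were seen, read 22.3, 136 and 134 in WT, 21.7, 148 and 165 in Het and 142, 22.3 and 167 in KO. It was low in WT replicate 1 and Het replicate 1, as Bcas2 was, but also in KO replicate 2.

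The 3′ end of Bcas2, where the reads of this method fall, has a feature not found at the annotated transcript ends searched for the partners. In GENCODE M21 on GRCm38 the protein-coding transcript Bcas2-201 has 7 exons and 1467 bases, and its last exon, chr3:103178355-103179152, holds 671 bases of 3′ untranslated region. Of its 1418 stretches of 50 bases, the read length, 63 also occur, on either strand, in transcripts of other genes, 153 in number, and all 63 lie within the last 178 bases. In the last 300 bases of the longest protein-coding transcript of each of the 8 partners, 0 of 251 stretches occur in another gene. Whether the reads of a partner came from that end was not examined. Of 12243 tested protein-coding genes, 16% share at least 1 stretch there. Cdc5l shares 1208 of its 2978 stretches with 13 other genes, Prpf19 shares 63 with 1 and Crnkl1 shares 29 with 5. All of these lie outside the last 300 bases. A read that falls wholly in such a stretch can match more than 1 gene, and the part of such reads in the Bcas2 values was not tested.

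Levels of cell type marker lists are given here without a test. The summed level of the 4 elongating spermatid markers (Prm1, Prm2, Tnp1 and Tnp2) was 233289 to 249362 in WT, 179063 to 214894 in Het and 123388 to 199672 in KO. That of the 6 round spermatid markers was 4141 to 5069, 3606 to 4790 and 2491 to 3572. Both lists were lower in each KO sample than in each WT sample, and the WT and Het values of the round spermatid list overlapped. The 6 spermatocyte markers summed to 7120 to 9015 in WT, 6700 to 8919 in Het and 8161 to 8561 in KO, with overlap. The paper compared markers of its own, protamines and transition proteins among them, and reported no significant difference between genotypes. From these it concluded that the quantity and development of sperm cells were unaffected. It also reported a lower sperm count in Het and KO males, with tubules that looked normal in tissue sections. The sums here were not tested and do not weigh on that conclusion. Among the Het samples, replicate 2 had the highest value of the elongating spermatid list on the mean log2 scale, 15.52 beside 15.13 and 15.41. The 5 spermatogonia markers, of the cells in which BCAS2 has been studied, summed to 228 to 282 in WT, 227 to 291 in Het and 224 to 267 in KO. The 6 Sertoli markers summed to 639 to 1242, 930 to 1533 and 840 to 1522, with overlap. Of 4 epididymis markers, Lcn5 and Lcn8 were at or under 3 reads in all samples. In bulk testis, fewer cells of a type and less RNA per cell cannot be told apart, and the part of cell composition in the Bcas2 values was not tested.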

How the data were processed

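The 9 testis libraries (QuantSeq 3′ end, 50-base reads) were processed by the authors with Trim Galore 0.4.5, HISAT2 2.1 on GRCm38, StringTie 1.3.3 and DESeq2, with pseudogenes removed. The deposited values are a signal per gene, made by the authors by dividing whole counts by 1 size factor per sample. These counts were prepared per gene from the StringTie output. In each library 100% of nonzero values were whole multiples of 1 step (tolerance 0.01 read), which gave back the counts written here as reads. Groups followed the genotype labels, 3 samples each, and p-values measure the spread between these samples.

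Of the 6 samples in a comparison, 3 or more had to reach 10 for a gene to be tested, which was done on log2(value + 1) with limma 3.58.1 and a mean-variance trend (R 4.3.3), adjusted by Benjamini-Hochberg over all genes tested. The fold change understates that of low genes. Alternatives were DESeq2 1.42.0 and edgeR 4.0.16 (quasi-likelihood) on the recovered reads, other scalings, pseudocounts and filters, a fit of all samples, a replicate block, and leaving out each sample. The edgeR test with TMM factors on recovered reads called 5 genes for KO against WT, 0 for Het against WT and 7 for KO against Het. The fits were tested on simulated data.

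The members and lists were chosen with earlier results of these data known. Genes named were all members, Pfn3, genes with a row within 100 kb of Bcas2, from each list the called genes or else up to 2 with the largest difference among those whose KO and WT samples did not overlap, and the 5 genes most and least correlated with Bcas2, of which 1 is not reported here. Hmga1 was added to complete its list of 3 after its values were seen. Other genes outside this rule are said to be named after their values were seen. Shared stretches of 50 bases, from the longest protein-coding transcript of each gene, were searched on both strands in GENCODE M21 transcripts. Intervals are 95%. No group had enough samples for an outlier test. Isy1 was not analysed here, and no protein sequence was used here.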

Additional observations from a re-analysis of the deposited data

How the results depend on the processing

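The 8 partners had 0 calls under every alternative run and with any 1 sample left out. Of 408 partner values under the alternatives, 381 kept their direction, 27 changed sign and 0 passed the call, and the largest was 0.80 in size. Scaling by total reads moved the median over all genes from 0.02 to 0.22 for KO against WT, and from 0.01 to 0.16 for Het against WT. Calls over all genes moved most. For KO against WT (5 calls, 1 higher and 4 lower) DESeq2 gave 100 (23 higher, 77 lower), all 9 samples in 1 fit 3, the replicate block 0, and leaving out 1 sample 0 to 49. For Het against WT (0 calls) DESeq2 gave 31, limma with TMM factors 1, a pseudocount of 5 2, no filter 3, at least 10 in every sample 1, all 9 samples 3, and leaving out 1 sample 0 to 3, the 3 without Het replicate 2. For KO against Het (8 calls, 5 higher and 3 lower) DESeq2 gave 38 (14 higher, 24 lower), edgeR with RLE factors 5 (2 higher, 3 lower), at least 10 in every sample 1, all 9 samples 4, the replicate block 0, and leaving out 1 sample 0 to 39, the 39 without Het replicate 2. For KO against WT, 49 was without WT replicate 1 and 11 without KO replicate 1. The other lists, the germ-cell genes included, had 0 calls, against 1 (Ehmt2) in DESeq2 for KO against WT, 0 to 1 with 1 sample left out (1 without WT replicate 1, again Ehmt2), and 1 (Prpf38a) in DESeq2 for Het against WT. The causes were not tested.

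Signs that changed were of small values. For Het against WT, Prpf19 was 0.090 with total reads, and Cwc15 was 0.0092 in DESeq2, 0.021 and 0.0094 in edgeR with TMM and RLE factors, 0.0024 in limma with TMM factors and 0.15 with total reads. For KO against Het, Ctnnbl1 was 0.0034 in edgeR with TMM factors and 0.035 with total reads. With 1 sample left out, the log2 ranges for KO against WT were -0.10 to 0.24 for Prpf19 and -0.043 to 0.12 for Cwc15. For Het against WT they were -0.31 to 0.14 for Prpf19, -0.21 to 0.17 for Cdc5l and -0.094 to 0.089 for Cwc15. For KO against Het they were -0.045 to 0.41 for Prpf19, -0.091 to 0.087 for Plrg1, -0.11 to 0.13 for Ctnnbl1, -0.040 to 0.12 for Cwc15 and -0.39 to 0.023 for Xab2. Bcas2 in KO minus WT stayed between 2.17 and 2.99 with 1 sample left out between 2.63 and 2.88 under other scalings and pseudocounts in limma, and at 2.58 in DESeq2 and in edgeR with either factor.

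Same-numbered samples of different genotypes were not paired by the labels. The correlation of their deviations ranged from -0.14 to 0.19 over 9 pairs, with 2 above 0.1. Between differently numbered samples of different genotypes it ranged from -0.24 to 0.19. The replicate block was kept as an alternative only. With 3 samples a group, precision is limited to the width of the partner intervals given above.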
